A study of Mus musculus with 20 samples.

Results

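The response of cultured murine cancer-associated fibroblasts (CAFs) to interleukin-1 alpha (IL-1a) with glutamine in full supply was measured in 10 of the 20 RNA sequencing libraries of the series. The members are the 5 libraries whose labels give 4 mM glutamine with IL-1a and the 5 whose labels give 4 mM glutamine with vehicle alone, and no measured value entered that choice. The cells of all 20 libraries were immortalised primary CAFs of mouse, kept for 32 h in their medium. The IL-1a cells received 25 pg/mL IL-1a together with DMSO in 4 mM glutamine. The vehicle cells received DMSO alone in 4 mM glutamine. The other 10 libraries were all in 0.2 mM glutamine, of which 5 had 25 uM EIPA and DMSO and 5 had DMSO alone. With them the IL-1a response is set beside that to EIPA, an amiloride analogue that blocks macropinocytosis. They also entered the choice of tested genes and the shared estimate of spread, and so bear on the limma SE, p and calls of the main fit. The EIPA dose is that of the sample titles, and the treatment protocol writes 25 mM. Every group carried DMSO, per the treatment protocol, and every group carried the immortalised state. The labels name no separate cultures or clones behind the replicate numbers, and every p below refers to the spread among these libraries, which may be technical.

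IL-1a binds its receptor Il1r1 and the co-receptor Il1rap, which signal through Myd88, the Irak kinases and Traf6 to the IkB kinases and release NF-kB into the nucleus. NF-kB induces chemokines and cytokines, and with them inhibitors of its own such as Nfkbia, which holds NF-kB in the cytoplasm. The nuclear proteins encoded by Nfkbiz and Bcl3 bind NF-kB on DNA. A later wave of secreted acute-phase proteins is known to need C/EBP factors, one of which is encoded by Cebpd. In pancreatic tumours of mice, IL-1 is known for driving fibroblasts to the inflammatory state (iCAF) with secretion of Il6, Cxcl1 and Lif, and TGF-beta for driving them to the contractile, matrix-making state (myCAF).

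With IL-1a, 32 genes rose and 3 fell among 12350 tested, 35 in all, which is 0.283% of the tested genes (0.259% higher, 0.0243% lower). A gene was tested where it reached 1 TPM in at least 5 of the 20 libraries, and called where limma gave an adjusted p under 0.05 on log2(TPM + 1). TPM are transcript abundances scaled to a fixed sum, so every library has the same total. The genes that rose most were the acute-phase gene Saa3, the neutrophil chemokines Cxcl5 and Cxcl1, the metalloreductase Steap4 and the monocyte chemokine Ccl7, by 3.34 to 1.64 on the log2 scale. The median of all tested genes moved by 0.01 and the median size of change was 0.055. Of the 35 genes, 15 changed by at least 2-fold on this scale, 14 of them higher. The 5 IL-1a and the 5 vehicle libraries did not overlap for 32 of the 35 genes, against 1.38% of all tested genes (0.777% higher and 0.599% lower). Since the 35 were picked by their p in these same libraries, little overlap follows from that choice and is no further evidence. An unadjusted p under 0.05 was given to 744 genes (6.02%).

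**Figure D1:**
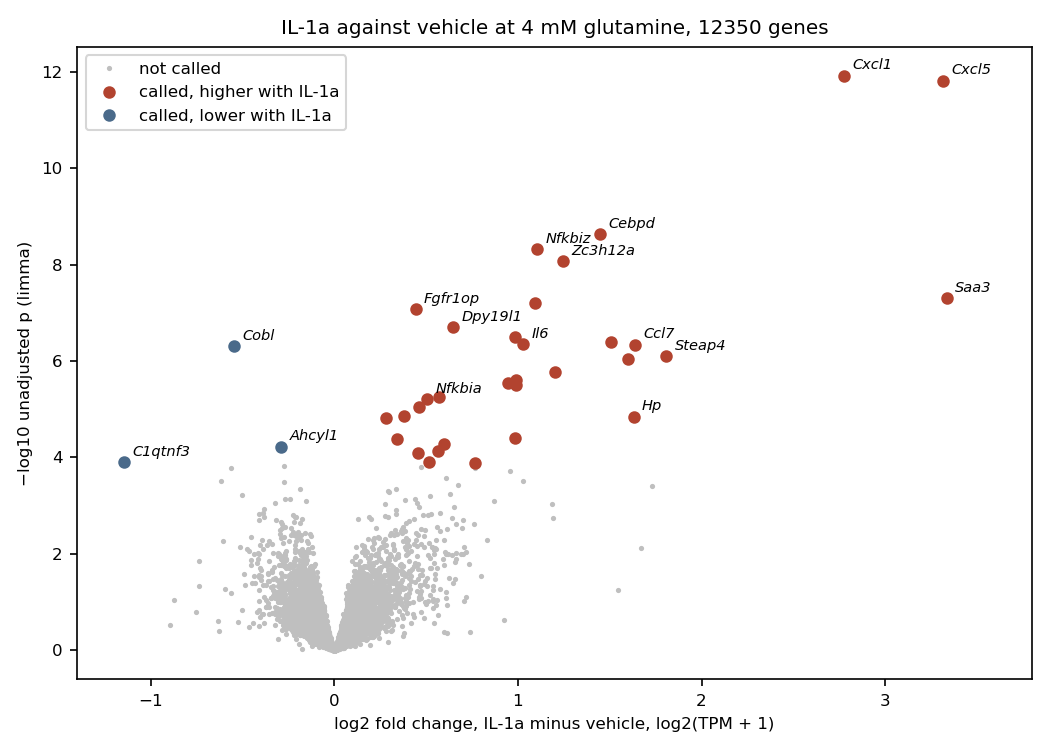
Log2 fold change of IL-1a over vehicle at 4 mM glutamine (x axis) against −log10 of the unadjusted limma p (y axis) for 12350 genes, each point a gene, with called genes in colour. The 32 genes called higher reach 3.34 on the x axis, the 3 called lower lie between -0.29 and -1.15, and Cxcl1 and Cxcl5 stand at the top.

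Between 11818 and 12045 genes reached 1 TPM in the 10 libraries, and since TPM keep no record of read number the depth is unknown. In IL-1a replicates 1 and 5 and vehicle replicate 5, Ccn1, a YAP target, stood at 201, 235 and 231 TPM, against 379 to 599 TPM in the other 7. These 3 libraries lay at the far end of the first principal component of the 10, which held 38.02% of the variance. Without them limma called 34 genes, 30 of them among the 35. The fibroblast markers were present, with Col1a1 at 2464 to 3697 TPM and Pdgfra at 27.0 to 93.5 TPM, although Fap and Lum stayed under 0.5 TPM in all 10 libraries. Of 8 leukocyte markers 2 reached 1 TPM in any library, Csf1r and Cd68, and their summed level was 2.76 to 3.97 TPM with IL-1a and 2.47 to 3.67 TPM with vehicle, with Cd3e and Adgre1 at 0 in all 10. Of 4 endothelial markers 2 did, with a sum of 1.90 to 3.54 TPM with IL-1a and 2.90 to 4.04 TPM with vehicle, and Cdh5 was at 0 in all 10. All 5 mesothelial markers did, with a sum of 404 to 638 TPM with IL-1a and 466 to 711 TPM with vehicle, and 4 of 6 epithelial markers did, most of their sum being Krt19. The mitochondrially encoded mRNAs took 10.0% ± 0.51 of the TPM with IL-1a and 10.4% ± 1.17 with vehicle (SD, n = 5 each; two-sided exact permutation p = 0.63). In a bulk library, fewer cells with a transcript and less of it per cell cannot be told apart.

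Promoter windows from RefSeq on GRCm38.p6, 250 bases before to 50 bases after the gene start, are shown for 5 of the genes that rose. They were chosen after their values were seen, to show chemokine, acute-phase, NF-kB feedback and cytokine genes whose window held a motif, and other called genes with a motif, such as Bcl3, are not shown. Capitals mark matches to the kB consensus, which NF-kB is known to bind, or to the C/EBP motif TTGCNNAA, both searched on both strands.
Saa3, chr7:46715627-46715926, minus strand: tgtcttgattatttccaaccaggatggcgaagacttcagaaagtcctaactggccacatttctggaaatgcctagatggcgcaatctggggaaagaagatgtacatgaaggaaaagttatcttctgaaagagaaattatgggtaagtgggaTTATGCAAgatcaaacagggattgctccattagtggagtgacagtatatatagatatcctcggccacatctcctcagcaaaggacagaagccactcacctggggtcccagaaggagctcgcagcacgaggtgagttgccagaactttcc
Cxcl1, chr5:90890995-90891294, plus strand: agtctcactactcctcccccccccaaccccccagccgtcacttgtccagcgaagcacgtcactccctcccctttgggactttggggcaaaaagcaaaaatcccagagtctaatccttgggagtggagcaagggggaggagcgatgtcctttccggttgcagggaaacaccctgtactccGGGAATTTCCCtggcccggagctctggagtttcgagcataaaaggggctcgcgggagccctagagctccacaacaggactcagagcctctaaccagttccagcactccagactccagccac
Steap4, chr5:7960222-7960521, plus strand: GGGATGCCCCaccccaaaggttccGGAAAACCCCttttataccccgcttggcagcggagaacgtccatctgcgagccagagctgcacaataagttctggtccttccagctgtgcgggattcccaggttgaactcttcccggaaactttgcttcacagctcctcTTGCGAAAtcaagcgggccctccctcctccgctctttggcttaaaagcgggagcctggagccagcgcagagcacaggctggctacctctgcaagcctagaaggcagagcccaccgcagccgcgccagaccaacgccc
Nfkbia, chr12:55492598-55492897, minus strand: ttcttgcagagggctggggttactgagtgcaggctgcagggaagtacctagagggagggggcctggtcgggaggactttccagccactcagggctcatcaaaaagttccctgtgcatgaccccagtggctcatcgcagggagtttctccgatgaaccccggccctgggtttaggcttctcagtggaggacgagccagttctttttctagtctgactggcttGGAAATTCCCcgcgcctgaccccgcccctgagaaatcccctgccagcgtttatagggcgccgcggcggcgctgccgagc
Il6, chr5:30012864-30013163, plus strand: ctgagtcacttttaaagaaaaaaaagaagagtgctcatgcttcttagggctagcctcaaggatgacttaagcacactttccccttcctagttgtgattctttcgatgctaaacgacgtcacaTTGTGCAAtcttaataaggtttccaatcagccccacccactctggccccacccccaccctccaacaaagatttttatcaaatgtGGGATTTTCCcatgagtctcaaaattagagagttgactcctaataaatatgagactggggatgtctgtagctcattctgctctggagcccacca

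The Cxcl1 window held 2 overlapping kB matches, 71 and 70 bases before the start, read as 1 run of capitals. The Nfkbia window held a kB match 29 bases before the start, and the Saa3 window a C/EBP match 99 bases before it. The Steap4 window held kB matches 250 and 226 bases before the start and a C/EBP match at 87, and the Il6 window a kB match at 44 and a C/EBP match at 128. Of the 32 genes that rose, 20 had an entry, with 24 windows in all, since a gene can have several starts. Cxcl5, Ccl7, Hp, Ccl2, Cebpd, Bdkrb1, Nfkbiz, Tgfbr3, Cxcl16, Wdyhv1 and Fgfr1op were among those with none. A kB match stood in 10 of the 24 windows (41.7%), against 10.5% of the windows of all tested genes and 8.46% of all windows of the table. A C/EBP match stood in 7 of the 24 (29.2%), against 8.17% and 10.8%. Some windows of the same gene overlap, and by gene the counts were 9 of 20 (45.0%) for kB and 7 of 20 (35%) for C/EBP, against 12.4% and 9.76% of the tested genes. The window of Zc3h12a held neither motif. A match is a description of the letters and not a measured binding site.

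Of the 38 lists, that of chemokines had the largest share of called members. Of 25 chemokine genes on it, 14 were tested, of which 5 rose and none fell (background 0.259% higher). The median of the 14 was 0.51, against 0.01 for all tested genes. The same background applies to the lists below. Cxcl5 and Cxcl1 both signal to neutrophils through the receptor Cxcr2. Cxcl5 was at 105, 59.6, 42.4, 36.8 and 29.9 TPM in IL-1a replicates 1 to 5, against 3.25, 3.88, 4.24, 3.81 and 5.40 TPM in vehicle replicates 1 to 5. Every IL-1a library stood well above every vehicle library, with replicate 1 highest, and the log2 fold change was 3.31 ± 0.22 (SE; limma adjusted p = 9.4e-09). Cxcl1 was at 89.3, 78.0, 52.4, 43.3 and 39.5 TPM with IL-1a, against 6.94, 8.03, 7.54, 5.63 and 10.2 TPM with vehicle. The groups did not overlap, replicates 1 and 2 were the highest of the IL-1a libraries, and the log2 fold change was 2.77 ± 0.18 (adjusted p = 9.4e-09).

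Ccl2 and Ccl7 recruit monocytes through the receptor Ccr2, and both had a higher level with vehicle and a smaller change than Cxcl5 and Cxcl1. Ccl2 was at 132, 184, 158, 130 and 97.0 TPM with IL-1a, against 55.0, 49.8, 48.3, 50.5 and 37.0 TPM with vehicle. Ccl7 was at 48.7, 82.6, 72.1, 50.1 and 32.6 TPM with IL-1a, against 16.5, 17.6, 19.7, 17.7 and 13.1 TPM with vehicle. For both genes replicate 2 was the highest IL-1a library, replicate 5 was the lowest of each group, and the groups did not overlap. Their log2 fold changes were 1.5 ± 0.21 and 1.64 ± 0.23, each with an adjusted p of 4.3e-04. Cxcl16, a membrane-bound chemokine that is shed and attracts T cells, was at 6.69 to 12.01 TPM with IL-1a, against 4.83 to 5.75 TPM with vehicle (0.56 ± 0.11, adjusted p = 0.029). Its call was lost without IL-1a replicate 1 or 2 or vehicle replicate 1, 2, 3 or 4 (adjusted p 0.055 to 0.11). Its exons overlap those of the expressed gene Zmynd15, so reads of the pair may be shared.

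The other chemokines did not pass. Ccl20, which attracts dendritic and Th17 cells, was at 0.84 to 3.24 TPM with IL-1a and 0.43 to 0.84 TPM with vehicle (0.96 ± 0.21, adjusted p = 0.059). Cxcl10, an interferon-inducible chemokine, was at 17.3 to 24.6 TPM with IL-1a and 11.6 to 15.5 TPM with vehicle (0.54 ± 0.21, adjusted p = 0.60), with no overlap. Cxcl12, the most abundant chemokine of these cells, was at 1191 to 1323 TPM with IL-1a and 1337 to 1414 TPM with vehicle (-0.12 ± 0.06, adjusted p = 0.91), also with no overlap. Cxcl2, which shares Cxcr2 with Cxcl1, stayed at 0.14 to 0.62 TPM with IL-1a and 0 to 0.14 TPM with vehicle and was not tested.

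Of the 5 called chemokine genes, 4 lie in 2 pairs on the genome (GRCm38, GENCODE M21), and Cxcl16 lies apart from them. Cxcl5 (chr5:90759360-90761624) and Cxcl1 (chr5:90891241-90893115) are 129.6 kb apart on the plus strand. Cxcl15, the tested gene between them, was at 10.1 TPM with IL-1a and 6.43 TPM with vehicle on average (0.41 ± 0.37, adjusted p = 1.0), so its neighbours were called and it was not. Ccl2 (chr11:82035571-82037453) and Ccl7 (chr11:82045712-82047525) are 8.3 kb apart, also on the plus strand, with no tested gene between them. Further called pairs within 200 kb were Fgf7 and Dtwd1 on chromosome 2, 61.0 kb apart and both higher, and Slc6a17 and Ahcyl1 on chromosome 3, 145.1 kb apart, of which the first rose and the second fell.

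**Figure D2:**
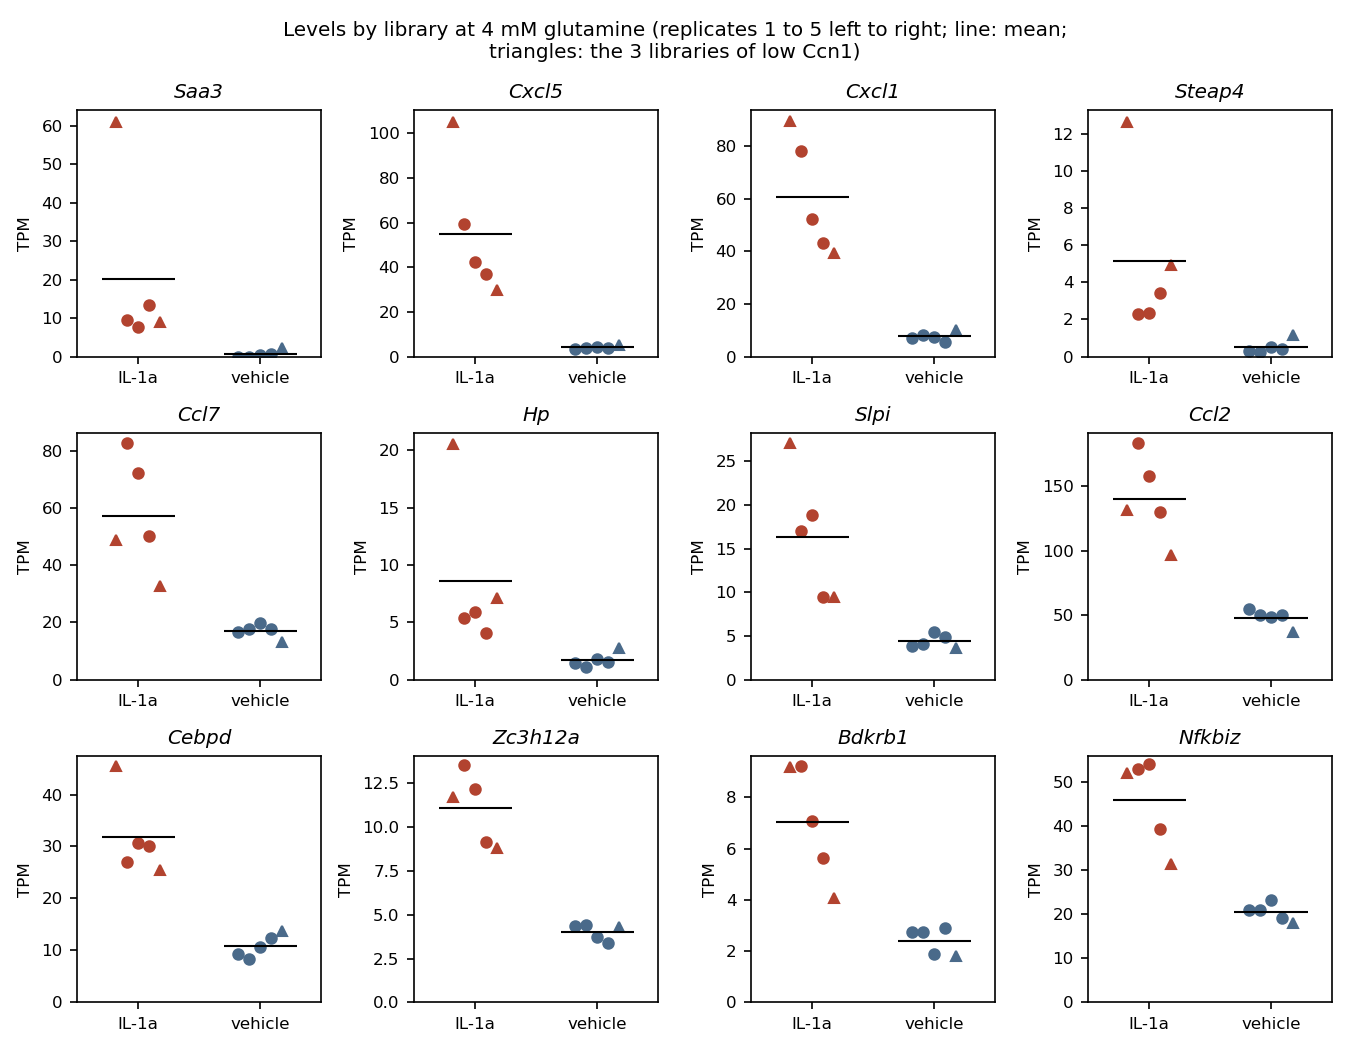
TPM (y axis, from 0) of the 12 genes with the largest rise that met the level and overlap rule, with IL-1a (left) and vehicle (right) at 4 mM glutamine, each point a library in replicate order and each line the mean of 5. Triangles mark the 3 libraries of low Ccn1. In all 12 panels the 5 IL-1a libraries lie above the 5 vehicle libraries, and IL-1a replicate 1 stands apart for Saa3, at 60.9 TPM.

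Acute-phase genes encode proteins secreted in inflammation. Of 30 acute-phase, complement and C/EBP genes 16 were tested, of which 4 rose and none fell (background 0.259% higher). The median of the 16 was 0.40. Saa3, the serum amyloid A of mouse fibroblasts and macrophages, was at 60.9, 9.47, 7.67, 13.5 and 8.86 TPM with IL-1a, against 0, 0, 0.35, 0.78 and 2.17 TPM with vehicle. It was thus near 0 in most vehicle libraries and at least 7.67 TPM in every IL-1a library, with replicate 1 far above the other 4. The log2 fold change was 3.34 ± 0.40 (adjusted p = 1.0e-04), and 2.83 without IL-1a replicate 1 (adjusted p = 7.7e-06). Of 21 alternative fits, 20 called it. Saa genes have near-identical stretches, so some reads may belong to a relative, although Saa1 and Saa2 were listed at 0 TPM in all 10 libraries.

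Cebpd, the C/EBP factor induced in the acute phase, was at 45.5, 27.0, 30.7, 30.1 and 25.4 TPM with IL-1a, against 9.39, 8.37, 10.6, 12.4 and 13.8 TPM with vehicle. The groups did not overlap, and the log2 fold change was 1.45 ± 0.15 (adjusted p = 9.6e-06). Its exons overlap those of the expressed gene Spidr. Of the other C/EBP genes, Cebpb was at 171 to 219 TPM with IL-1a and 151 to 180 TPM with vehicle (0.22 ± 0.07, adjusted p = 0.41), and Cebpa and Cebpg had log2 fold changes of -0.09 and -0.03.

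Steap4, a metalloreductase of the plasma membrane and endosomes that reduces iron and copper, was at 12.6, 2.29, 2.36, 3.43 and 4.93 TPM with IL-1a, against 0.31, 0.23, 0.53, 0.42 and 1.15 TPM with vehicle (1.81 ± 0.26, adjusted p = 6.6e-04). Hp, haptoglobin, which binds free haemoglobin, was at 20.5, 5.41, 5.85, 4.04 and 7.12 TPM with IL-1a, against 1.48, 1.13, 1.76, 1.49 and 2.74 TPM with vehicle (1.63 ± 0.29, adjusted p = 0.007). For both genes replicate 1 was the highest IL-1a library by more than 2-fold, vehicle replicate 5 was the highest vehicle library, and the groups did not overlap. When the 10 libraries were fitted alone, with their own estimate of spread, neither was called (adjusted p = 0.11 for Steap4 and 0.15 for Hp). Of 9 tested markers of antigen-presenting CAFs (apCAF) 2 rose, Saa3 and Slpi, and none fell (background 0.259% higher). The median of the 9 was 0.13, or 0.014 without IL-1a replicate 1, and 5 of them had a positive value. Cd74 was at 0.32 to 1.49 TPM with IL-1a and 0.13 to 1.12 TPM with vehicle, and was not called (0.21 ± 0.18). H2-Aa was listed at 0 in all 10 libraries, and H2-Ab1 and H2-Eb1 stayed at 0.06 and 0.33 TPM at most, so none of them was tested. Nkain4, Irf5, Upk3b and Ezr had negative values without a call. Slpi, an inhibitor of neutrophil elastase, was at 27.1, 17.0, 18.8, 9.41 and 9.45 TPM with IL-1a, against 3.79, 4.07, 5.46, 4.90 and 3.65 TPM with vehicle. The groups were well apart (1.60 ± 0.23, adjusted p = 6.9e-04).

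C3, the central complement protein, had a log2 fold change of 1.19 ± 0.31 that did not pass (adjusted p = 0.18). It was at 48.4, 9.65, 10.4, 13.6 and 19.1 TPM with IL-1a, against 6.25, 4.98, 7.72, 5.73 and 10.3 TPM with vehicle, and IL-1a replicate 2 lay below vehicle replicate 5. Cp, ceruloplasmin, was at 66.1 to 171 TPM with IL-1a and 36.8 to 65.1 TPM with vehicle (1.03 ± 0.24, adjusted p = 0.088), with no overlap. Lcn2, lipocalin 2, which withholds iron from bacteria, was at 2.01, 0.27, 0.58, 0.45 and 0.20 TPM with IL-1a and was listed at 0 in all 5 vehicle libraries. It did not reach the level needed for testing, so no fold is given.

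Nfkbia and Zc3h12a, which restrain NF-kB and cytokine mRNA, rose, and so did the nuclear IkB genes Nfkbiz and Bcl3. Of 30 tested NF-kB subunits and feedback inhibitors 4 rose and none fell (background 0.259% higher). The median of the 30 was 0.09, against 0.01 for all tested genes. Nfkbiz, the nuclear IkB-zeta needed for secondary NF-kB targets, was at 52.1, 52.95, 54.1, 39.5 and 31.5 TPM with IL-1a, against 21.0, 21.0, 23.2, 19.2 and 18.1 TPM with vehicle. Bcl3, a nuclear IkB protein that binds NF-kB dimers, was at 49.97, 29.8, 35.8, 31.4 and 34.5 TPM with IL-1a, against 12.7, 14.9, 19.3, 16.5 and 18.5 TPM with vehicle. Neither gene had overlapping groups, and the log2 fold changes were 1.10 ± 0.12 (adjusted p = 1.5e-05) and 1.09 ± 0.13 (adjusted p = 1.1e-04). Zc3h12a, an endoribonuclease (Regnase) that degrades Il6 and other cytokine mRNAs, was at 11.7, 13.5, 12.2, 9.14 and 8.78 TPM with IL-1a, against 4.36, 4.40, 3.75, 3.40 and 4.30 TPM with vehicle. This was a rise of 1.25 ± 0.14 with no overlap (adjusted p = 2.1e-05). Nfkbia, the cytoplasmic IkB-alpha, was at 46.2, 59.4, 47.4, 46.6 and 41.4 TPM with IL-1a, against 34.3, 32.8, 33.9, 33.4 and 32.5 TPM with vehicle. The vehicle libraries were nearly equal and all IL-1a libraries lay above them, so the smaller rise of 0.51 ± 0.08 was called (adjusted p = 0.0035).

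The NF-kB subunits themselves did not pass. Rela, Nfkb1, Nfkb2, Relb and Rel had log2 fold changes between -0.06 and 0.26. Tnfaip3, a ubiquitin-editing inhibitor of the pathway, was at 10.9 to 27.4 TPM with IL-1a and 13.5 to 22.8 TPM with vehicle (0.09 ± 0.18, adjusted p = 1.0), so the groups lay over each other. Map3k8, a kinase of the ERK cascade, was at 1.46 to 2.59 TPM with IL-1a and 0.88 to 1.45 TPM with vehicle without overlap, and was not called (0.41 ± 0.12, adjusted p = 0.28). Of 13 mRNA decay regulators Zc3h12a alone was called. Zfp36, which encodes tristetraprolin, was at 9.44 to 10.5 TPM with IL-1a and 9.76 to 11.04 TPM with vehicle.

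None of 18 tested genes of IL-1 ligands, receptors and signal transducers was called by limma. The median of the 18 was 0.05, and 5 had an unadjusted p under 0.05, against 6.02% of all tested genes. Il1r1 was at 19.0, 13.1, 12.3, 10.2 and 10.7 TPM with IL-1a, against 10.2, 10.6, 10.7, 8.74 and 9.41 TPM with vehicle (0.33 ± 0.12, adjusted p = 0.56). Without IL-1a replicate 1 the log2 fold change of Il1r1 was 0.20. Il1rap, Myd88, Irak1, Irak4, Irak2 and Traf6 had log2 fold changes between -0.07 and 0.16. Il1a itself was listed at 0.03 TPM at most and Il1b at 0 in all 10 libraries. Il33, a nuclear alarmin of the IL-1 family, was at 37.8 to 120 TPM with IL-1a and 23.3 to 37.2 TPM with vehicle (0.87 ± 0.22, adjusted p = 0.17), with no overlap but one wide group.

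Il6, the cytokine that defines the inflammatory CAF state, rose at a low level. It was at 3.63, 5.55, 4.74, 4.25 and 3.15 TPM with IL-1a, against 2.04, 1.94, 1.32, 1.44 and 1.11 TPM with vehicle. All 5 IL-1a libraries were above all 5 vehicle libraries, and the log2 fold change was 1.03 ± 0.14 (adjusted p = 4.3e-04). Of 17 tested genes of the IL-6 family, its receptors and STAT3 feedback, Il6 alone was called. Lif was at 9.07 to 11.4 TPM with IL-1a and 10.1 to 13.7 TPM with vehicle (-0.19 ± 0.16, adjusted p = 1.0). Osmr, the oncostatin M receptor, was at 27.6 to 57.1 TPM with IL-1a and 18.6 to 27.2 TPM with vehicle (0.65 ± 0.17, adjusted p = 0.20). Socs3, the feedback inhibitor of STAT3, was at 28.4 to 51.3 TPM with IL-1a and 20.9 to 27.4 TPM with vehicle (0.48 ± 0.13, adjusted p = 0.26). For both the groups came close without overlap and no call was made. Without IL-1a replicate 1 the changes of Osmr and Socs3 were 0.49 and 0.33. Il11 and Csf3 stayed under 0.3 TPM.

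Of 24 tested iCAF markers 7 rose and none fell (background 0.259% higher), and the median was 0.27. An unadjusted limma p under 0.05 was given to 15 of the 24, against 6.02% of all tested genes. The 7 were Saa3, Cxcl5, Cxcl1, Ccl7, Hp, Ccl2 and Il6, all secreted factors given above. The other 17 included Pdgfra, a receptor of the iCAF state, at 93.5, 43.3, 34.2, 41.1 and 47.2 TPM with IL-1a, against 30.2, 28.8, 27.0, 31.8 and 36.8 TPM with vehicle (0.64 ± 0.18, adjusted p = 0.27). Without IL-1a replicate 1, its highest library, the change was 0.41. Has2, a hyaluronan synthase, Ly6c1, Dpp4 and Dcn were within 0.25 of zero. Igf1 and Ogn, the growth factor and a small leucine-rich proteoglycan, had the lowest values of the list, -0.47 ± 0.16 (adjusted p = 0.51) and -0.45 ± 0.20 (adjusted p = 0.78).

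None of 36 tested myCAF markers was called by limma, and none of 23 collagen genes or of 25 YAP and SRF targets. The medians were -0.13, -0.07 and -0.17, and 4, 1 and 4 members had an unadjusted p under 0.05. The collagen median was -0.12 without IL-1a replicate 1 and -0.17 without the 3 libraries of low Ccn1. Acta2, smooth muscle actin, was at 770, 1202, 1212, 1247 and 793 TPM with IL-1a, against 1525, 1364, 1294, 1285 and 842 TPM with vehicle (-0.28 ± 0.21, adjusted p = 1.0). The groups overlapped, since vehicle replicate 5 was as low as IL-1a replicates 1 and 5. Col1a1 was at 2464 to 3663 TPM with IL-1a and 3046 to 3697 TPM with vehicle (-0.11 ± 0.11, adjusted p = 1.0). All 25 YAP and SRF targets had a negative value, from -0.41 for Ccn2 to -0.02 for Amotl1. Their mean log2(TPM + 1) was 7.07, 7.63, 7.60, 7.60 and 7.29 with IL-1a, against 7.79, 7.74, 7.62, 7.65 and 7.30 with vehicle. The lowest 3 levels were those of the 3 libraries of low Ccn1, of which 2 had IL-1a and 1 vehicle (Ccn1 is itself on the list), and without these 3 the median was -0.10. Vcan, the proteoglycan versican, was the nearest to a call, at 41.1 to 58.7 TPM with IL-1a and 29.9 to 35.1 TPM with vehicle (0.47 ± 0.10, adjusted p = 0.052).

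**Figure D3:**
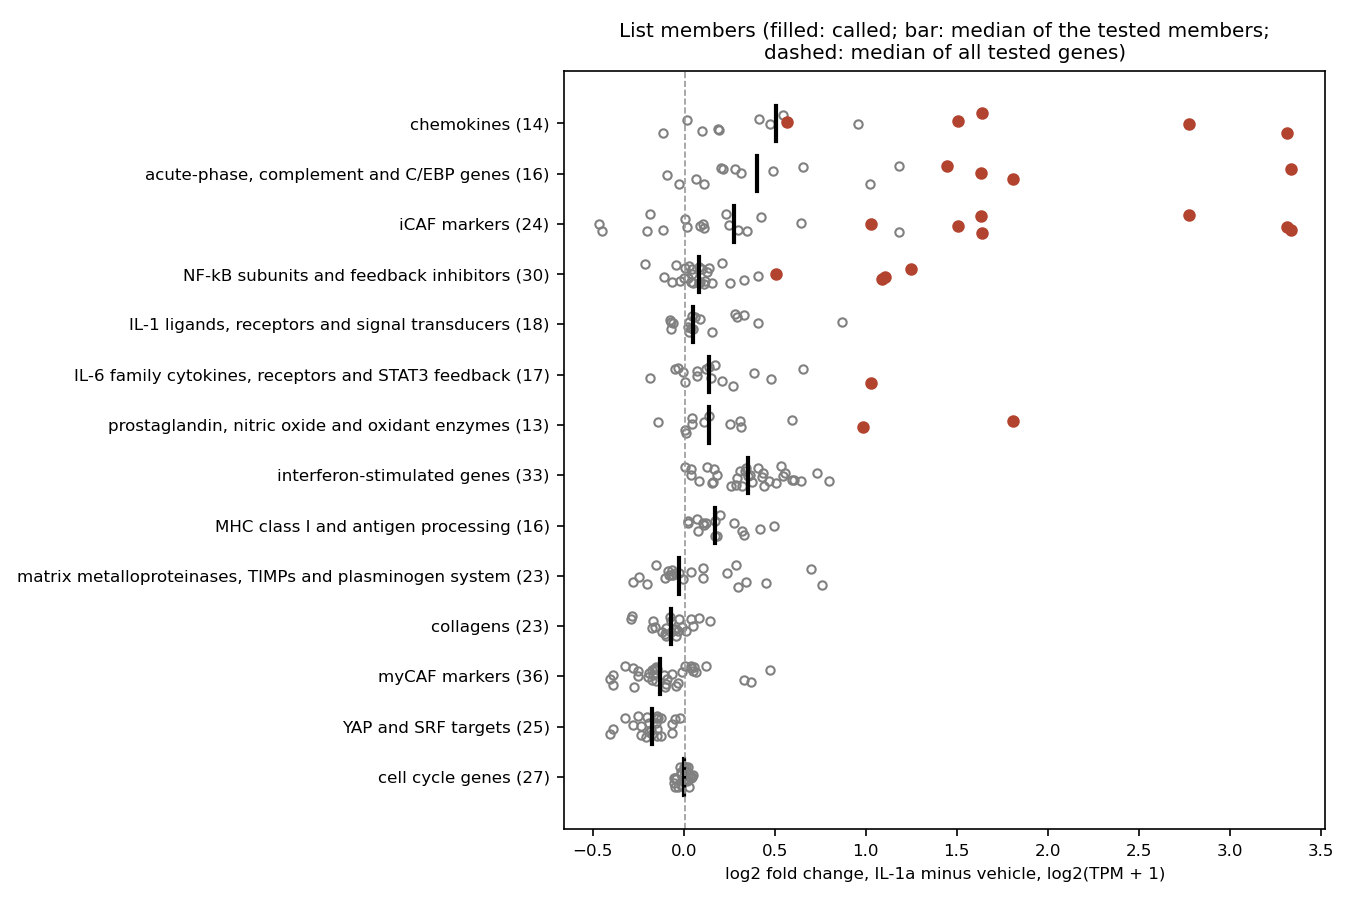
Log2 fold change of IL-1a over vehicle (x axis) of the tested members of 14 gene lists (rows, number tested in brackets), each point a gene, filled where called, each bar the list's median and the dashed line the median of all tested genes. Called genes stand in the first 4 rows and in the IL-6 and prostaglandin rows, while interferon-stimulated genes lie to the right, and YAP and SRF targets to the left, without a call.

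Bdkrb1 and Ch25h also rose. Bdkrb1, the inducible kinin receptor, whose ligands are kinins cleaved in inflamed tissue, was at 9.18, 9.24, 7.06, 5.65 and 4.07 TPM with IL-1a, against 2.74, 2.74, 1.89, 2.90 and 1.80 TPM with vehicle. The groups did not overlap (1.20 ± 0.18, adjusted p = 0.0012). The other kinin receptor gene, Bdkrb2, did not pass (0.44, adjusted p = 0.27). Bdkrb1 was the only called gene of 16 tested adhesion molecules and surface receptors, among which Vcam1 was at 143 to 210 TPM with IL-1a and 109 to 163 TPM with vehicle (0.41 ± 0.14, adjusted p = 0.48). Icam1 was at 10.96 to 18.0 TPM with IL-1a and 10.7 to 13.3 TPM with vehicle (0.06 ± 0.11, adjusted p = 1.0). Ch25h, which makes the oxysterol 25-hydroxycholesterol, was at 12.03, 4.93, 6.55, 4.16 and 4.60 TPM with IL-1a, against 2.34, 2.24, 3.09, 2.15 and 2.97 TPM with vehicle (0.99 ± 0.19, adjusted p = 0.018). Its call was lost without IL-1a replicate 3 or vehicle replicate 1, 2 or 4 (adjusted p 0.060 to 0.073) and when the 10 libraries were fitted alone (0.25). Of 13 tested prostaglandin, nitric oxide and oxidant enzymes, Ch25h and Steap4 were the called ones. Ptgs2, cyclooxygenase-2, ranged over 18.0 to 93.4 TPM with IL-1a and 15.1 to 55.1 TPM with vehicle (0.32 ± 0.36, adjusted p = 1.0). Sod2 was at 78.9 to 89.1 TPM with IL-1a and 68.4 to 81.4 TPM with vehicle (0.14 ± 0.06, adjusted p = 0.65).

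Among proteases, Mmp3, stromelysin, was at 69.8, 25.8, 20.1, 19.8 and 29.3 TPM with IL-1a, against 15.4, 18.0, 16.6, 16.0 and 23.04 TPM with vehicle. Its log2 fold change of 0.70 ± 0.25 did not pass (adjusted p = 0.51), and without IL-1a replicate 1 it was 0.39. None of 23 tested metalloproteinase, TIMP and plasminogen genes was called by limma (8 with an unadjusted p under 0.05), Mmp13 being at 16.2 to 44.1 TPM with IL-1a and 15.8 to 19.8 TPM with vehicle. Timp1 was at 222 to 366 TPM with IL-1a and 189 to 249 TPM with vehicle (0.34 ± 0.12, adjusted p = 0.52).

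No interferon-stimulated gene was called by limma of 33 tested, though all 33 had a positive value, with a median of 0.35, and 10 an unadjusted p under 0.05. Their mean log2(TPM + 1) was 4.37, 3.36, 3.89, 3.22 and 3.28 with IL-1a, against 3.09, 3.22, 3.48, 3.26 and 3.27 with vehicle. The level was high in IL-1a replicates 1 and 3, while the other 3 IL-1a libraries lay within the range of the vehicle libraries, and without IL-1a replicate 1 the median was 0.16. Usp18, which removes the ubiquitin-like Isg15, had the highest value of the list (0.80 ± 0.34, adjusted p = 0.71), at 1.27 to 9.07 TPM with IL-1a and 0.62 to 2.41 TPM with vehicle. Ifitm3, which restricts virus entry, was at 195 to 458 TPM with IL-1a and 148 to 191 TPM with vehicle (0.60 ± 0.19, adjusted p = 0.42), with no overlap. All 16 tested genes of MHC class I and antigen processing had a positive value too, with a median of 0.17, or 0.06 without IL-1a replicate 1, and none was called by limma (4 with an unadjusted p under 0.05).

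Of the called genes on no list or on lists of growth factors and receptors, Casp4, the inflammatory caspase that senses cytosolic lipopolysaccharide, was at 21.2, 13.2, 14.0, 14.0 and 12.4 TPM with IL-1a, against 5.96, 7.59, 5.72, 6.81 and 8.84 TPM with vehicle. It rose by 0.99 ± 0.15 with no overlap (adjusted p = 0.0017). Rgs4, which switches off G protein signalling, was at 5.02, 2.02, 1.95, 2.30 and 1.65 TPM with IL-1a, against 0.90, 0.77, 0.64, 0.57 and 0.77 TPM with vehicle (0.99 ± 0.16, adjusted p = 0.0019). Slc6a17, a vesicular transporter of neutral amino acids, was at 13.0, 14.0, 12.3, 9.24 and 7.20 TPM with IL-1a, against 6.34, 5.61, 4.49, 4.17 and 4.60 TPM with vehicle (0.98 ± 0.13, adjusted p = 3.9e-04). Both were higher in every IL-1a library, and IL-1a replicate 1 stood apart for Rgs4 but not for Slc6a17. With the 10 libraries fitted alone, Rgs4 was not called (adjusted p = 0.12).

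Fgf7, keratinocyte growth factor, was at 4.10, 4.93, 5.44, 2.32 and 3.0 TPM with IL-1a, against 2.49, 2.55, 1.78, 1.22 and 1.39 TPM with vehicle. IL-1a replicate 4 lay below 2 vehicle libraries, and the rise of 0.76 ± 0.16 was near the threshold (adjusted p = 0.045). It was lost without IL-1a replicate 1, 2 or 3 or vehicle replicate 3, 4 or 5 (adjusted p 0.12 to 0.20). Tgfbr3, betaglycan, a TGF-beta co-receptor, was at 18.6 to 32.5 TPM with IL-1a and 12.3 to 17.5 TPM with vehicle (0.60 ± 0.12, adjusted p = 0.022), and lost its call without IL-1a replicate 3 or vehicle replicate 1, 2 or 4 (adjusted p 0.065 to 0.092). It was the called gene of 27 tested TGF-beta genes, whose median was -0.07, with Tgfb1 at 0.01 ± 0.10 and Smad7 at -0.13 ± 0.19. Dpy19l1, a C-mannosyltransferase of the endoplasmic reticulum, was at 80.4 to 121 TPM with IL-1a and 52.2 to 62.8 TPM with vehicle (0.65 ± 0.08, adjusted p = 2.7e-04).

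The remaining genes rose by less, between 0.28 and 0.57. Fgfr1op, a centrosomal protein gene, was at 30.3, 32.5, 33.5, 33.2 and 32.5 TPM with IL-1a, against 23.5, 23.5, 22.3, 23.6 and 24.9 TPM with vehicle. The spread within each group was small, so a change of 0.44 ± 0.06 gave an adjusted p of 1.3e-04. Dtwd1, a tRNA-modifying enzyme, averaged 20.9 ± 2.77 TPM with IL-1a and 13.7 ± 1.48 TPM with vehicle (SD, n = 5 each; 0.57 ± 0.09, adjusted p = 0.0033). Wdyhv1, an amidase of amino-terminal glutamine in the N-degron pathway, averaged 25.1 ± 1.02 TPM with IL-1a and 18.0 ± 1.58 TPM with vehicle (0.46 ± 0.08, adjusted p = 0.0047). Ifnar2, a subunit of the type I interferon receptor, averaged 65.4 ± 8.13 TPM with IL-1a and 49.9 ± 3.76 TPM with vehicle (0.38 ± 0.07, adjusted p = 0.007). Sbno2, a transcriptional co-regulator, averaged 40.2 ± 2.88 TPM with IL-1a and 32.9 ± 0.98 TPM with vehicle (0.28 ± 0.05, adjusted p = 0.0071). None of these 5 had overlapping groups. Under the 21 alternative fits Fgfr1op and Wdyhv1 were always called, Dtwd1 and Ifnar2 in 19 and Sbno2 in 18. Sbno2 was not called without the 3 libraries of low Ccn1 (adjusted p = 0.063). No gene of the 5 lost its call when a single library was left out. Susd6 (0.46 ± 0.09, adjusted p = 0.031), the phospholipid scramblase gene Plscr1 (0.34 ± 0.07, adjusted p = 0.018) and the protease inhibitor gene Serpinb1b (0.52 ± 0.11, adjusted p = 0.045) did lose it. For Susd6 this was without IL-1a replicate 2 or 3 or vehicle replicate 1, 3, 4 or 5 (0.052 to 0.11), and for Plscr1 without IL-1a replicate 1 or 2 or vehicle replicate 3, 4 or 5 (0.057 to 0.076). For Serpinb1b it was without any single library but IL-1a replicates 2 and 5 (0.058 to 0.18).

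Of the 3 genes that fell, Cobl, an actin nucleator, was at 10.9, 9.88, 8.98, 8.67 and 9.17 TPM with IL-1a, against 15.5, 15.4, 15.2, 13.1 and 12.8 TPM with vehicle. The groups did not overlap, and the change was -0.55 ± 0.08 (adjusted p = 4.3e-04). Ahcyl1, a regulator of the inositol trisphosphate receptor, was at 299 to 349.01 TPM with IL-1a and 348.77 to 421 TPM with vehicle (-0.29 ± 0.06, adjusted p = 0.025), with the highest IL-1a and lowest vehicle library level with each other. Its call was lost without IL-1a replicate 1 or 3 or vehicle replicate 1, 2, 3 or 4 (adjusted p 0.055 to 0.10). C1qtnf3, a secreted C1q and TNF family protein, was at 0.54, 2.55, 2.89, 1.89 and 1.06 TPM with IL-1a, against 6.81, 7.04, 5.26, 4.55 and 2.08 TPM with vehicle (-1.15 ± 0.24, adjusted p = 0.045). Vehicle replicate 5 lay below 2 IL-1a libraries. Its call was lost without IL-1a replicate 1, 4 or 5 or vehicle replicate 1, 2, 3 or 4 (adjusted p 0.071 to 0.17).

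Of the 35 called genes, 26 were called in all 10 fits that left out a single library. IL-1a replicate 1 was the highest IL-1a library for 18 of the 32 genes that rose, and without it limma called 31 genes, 29 of them among the 35. With the 10 libraries fitted alone limma called 19, all of them among the 35.

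**Figure D4:**
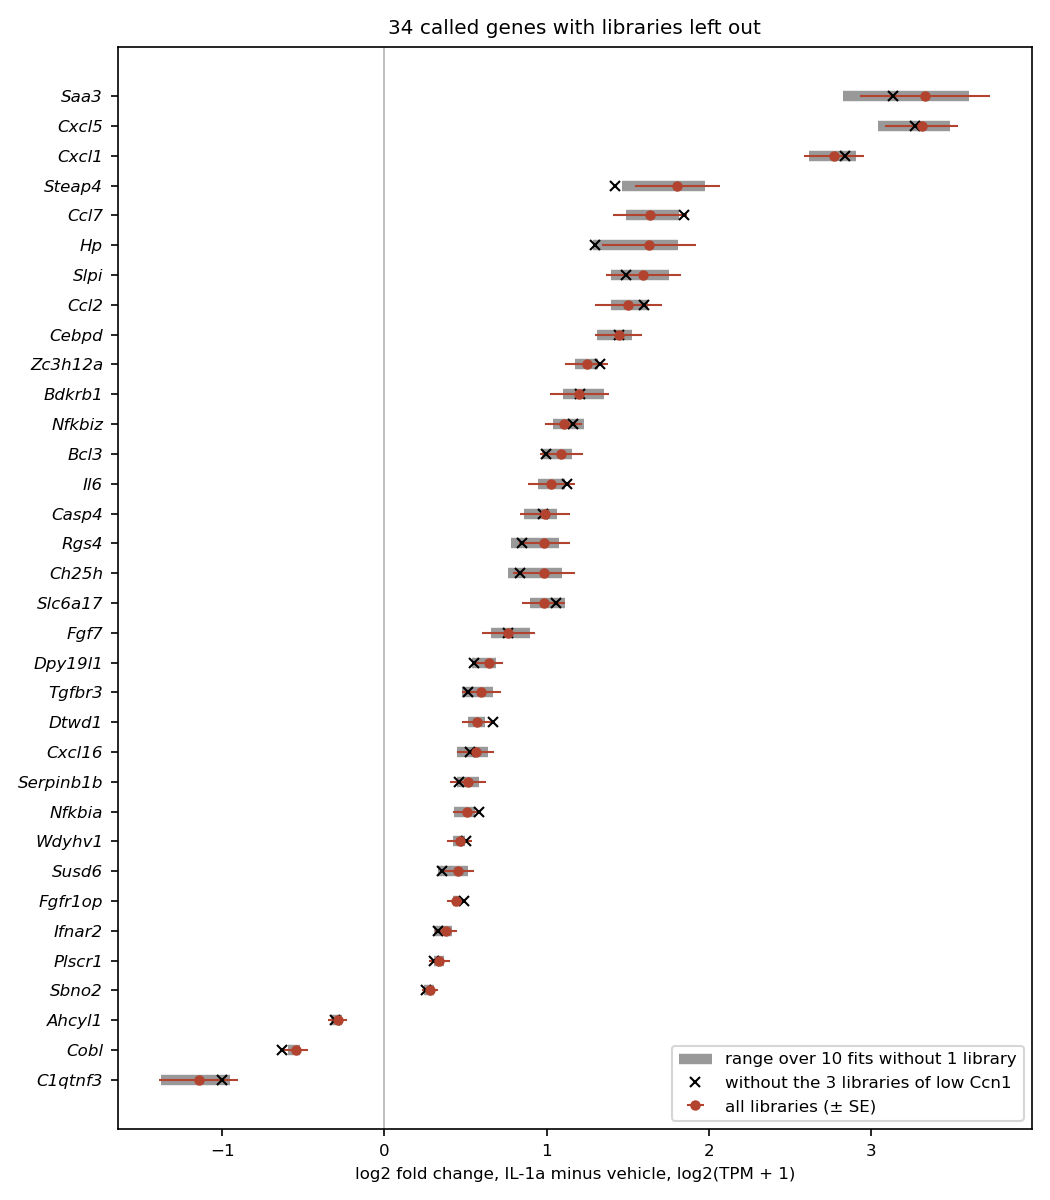
Log2 fold change of IL-1a over vehicle on log2(TPM + 1) (x axis) of 34 of the 35 called genes (rows), with all libraries (points, bars SE), over the 10 fits that each leave out a single library (grey bars) and without the 3 libraries of low Ccn1 (crosses). Every gene keeps its side of zero, and the widest ranges are those of Saa3 (2.83 to 3.61), Steap4 (1.46 to 1.98) and Hp (1.29 to 1.81).

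The lists of metabolism, stress and growth stayed close to the median gene. No member was called by limma among 27 cell cycle genes (median 0.00), 24 cholesterol genes (-0.02), 25 amino acid response genes (-0.04), 22 glycolysis genes (0.06), 23 NRF2 and metallothionein genes (0.03) or 18 genes of the unfolded protein response (-0.04). Of these, 0, 0, 2, 3, 1 and 1 had an unadjusted p under 0.05, in the same order. Of 21 genes of glutamine and glutamate metabolism none was called by limma and 2 had an unadjusted p under 0.05, with a median of 0.04. Gfpt2, which uses glutamine to make glucosamine phosphate, was the highest of them, at 11.7 to 29.8 TPM with IL-1a and 8.69 to 11.3 TPM with vehicle without overlap (0.67 ± 0.16, adjusted p = 0.10). Glul, glutamine synthetase, was at 13.5 to 21.98 TPM with IL-1a and 13.1 to 20.3 TPM with vehicle (0.19 ± 0.12). None of 22 AP-1 and immediate early genes was called by limma (median 0.03, 4 with an unadjusted p under 0.05), and none of 19 ERK and p38 feedback genes (median 0.03, 3 such genes).

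The 32 genes were then set beside their response to EIPA at 0.2 mM glutamine, which shares no library with the IL-1a response. Agent and glutamine level both differ between the responses, so their parts in any difference cannot be told apart. EIPA raised 19 of the 32 and lowered 3, against 27.4% higher and 21.1% lower of all tested genes (48.5% in either direction). The difference of the responses was called for 22 of the 32, with IL-1a the larger for 18 and EIPA for 4, against 28.9% of all tested genes in either direction (12.6% with IL-1a larger and 16.3% with EIPA larger). Since the genes were picked by their IL-1a response, the second count leans to IL-1a by that choice.

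Several of these genes had a far lower level at 0.2 mM glutamine, where the added 1 TPM shrinks a fold change more, so values with 0.1 TPM added are given where they differ. Cxcl5 was at 1.35 ± 0.30 TPM with EIPA and 0.24 ± 0.17 TPM with vehicle at 0.2 mM (SD, n = 5 each), a rise of 0.92 ± 0.22 that was smaller than that to IL-1a by 2.39 ± 0.32 (adjusted p of the difference 1.1e-05). With 0.1 TPM added the responses of Cxcl5 differed by 1.39 ± 0.42 (adjusted p = 0.018). Il6 was at 0.43 ± 0.16 TPM with EIPA and 0.79 ± 0.32 TPM with vehicle at 0.2 mM, with a value of -0.32 ± 0.14 that was not called, and the responses differed by 1.35 ± 0.20 (adjusted p = 4.9e-05). With 0.1 TPM added Il6 fell with EIPA (-0.75, adjusted p = 0.022) and the responses differed by 2.14 ± 0.37. Saa3, Steap4, Bdkrb1, Bcl3, Casp4, Rgs4, Ch25h, Nfkbia and Susd6 were likewise called with IL-1a and not with EIPA, and for each the difference was called (adjusted p from 3.3e-04 to 0.019). With 0.1 TPM added each difference was again called, and Rgs4 fell with EIPA (-0.83, adjusted p = 0.021). The levels of some were under 1 TPM on average at 0.2 mM. Rgs4 was at 0.16 ± 0.08 TPM with EIPA and 0.35 ± 0.09 TPM with vehicle there, and Steap4 at 0.06 ± 0.05 and 0.01 ± 0.01 TPM. Saa3 was at 0.85 ± 0.58 and 0.22 ± 0.15 TPM, a ratio of means of 3.84. Slc6a17, Dtwd1 and Ifnar2 rose with IL-1a and fell with EIPA, by -0.60 ± 0.13, -0.29 ± 0.09 and -0.18 ± 0.07, with a called difference for each.

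Ccl2 rose more with EIPA, at 31.8 ± 12.8 TPM with EIPA and 3.004 ± 0.76 TPM with vehicle at 0.2 mM (2.97 ± 0.21), and the responses differed by -1.47 ± 0.29 (adjusted p = 8.0e-04). Its highest level was nonetheless with IL-1a, 140 ± 32.7 TPM, against 48.1 ± 6.68 TPM in vehicle at 4 mM. Cxcl16, Plscr1 and Fgfr1op also rose more with EIPA. Their changes with EIPA were 1.80 ± 0.11, 1.03 ± 0.07 and 0.84 ± 0.06, and the responses differed by -1.24 ± 0.16, -0.70 ± 0.09 and -0.40 ± 0.08. For Ccl7, Hp, Slpi, Fgf7, Dpy19l1, Tgfbr3, Serpinb1b, Wdyhv1 and Sbno2 both treatments gave a called rise and no difference was called. Cxcl1, Cebpd, Nfkbiz and Zc3h12a, called with both treatments, rose more with IL-1a, by 1.84 ± 0.26, 1.08 ± 0.21, 0.56 ± 0.16 and 0.76 ± 0.19 (adjusted p of the difference 2.7e-05 to 0.014). The differences of Ccl7, Hp and Slpi were 0.25 ± 0.32, 0.56 ± 0.41 and -0.12 ± 0.33. With 0.1 TPM added they were -0.25 ± 0.39, -0.44 ± 0.57 and -1.15 ± 0.41, and that of Slpi was then called (adjusted p = 0.039). By mean TPM, Slpi was 9.56-fold higher with EIPA and 3.74-fold higher with IL-1a than with the vehicle of the same glutamine level.

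**Figure D5:**
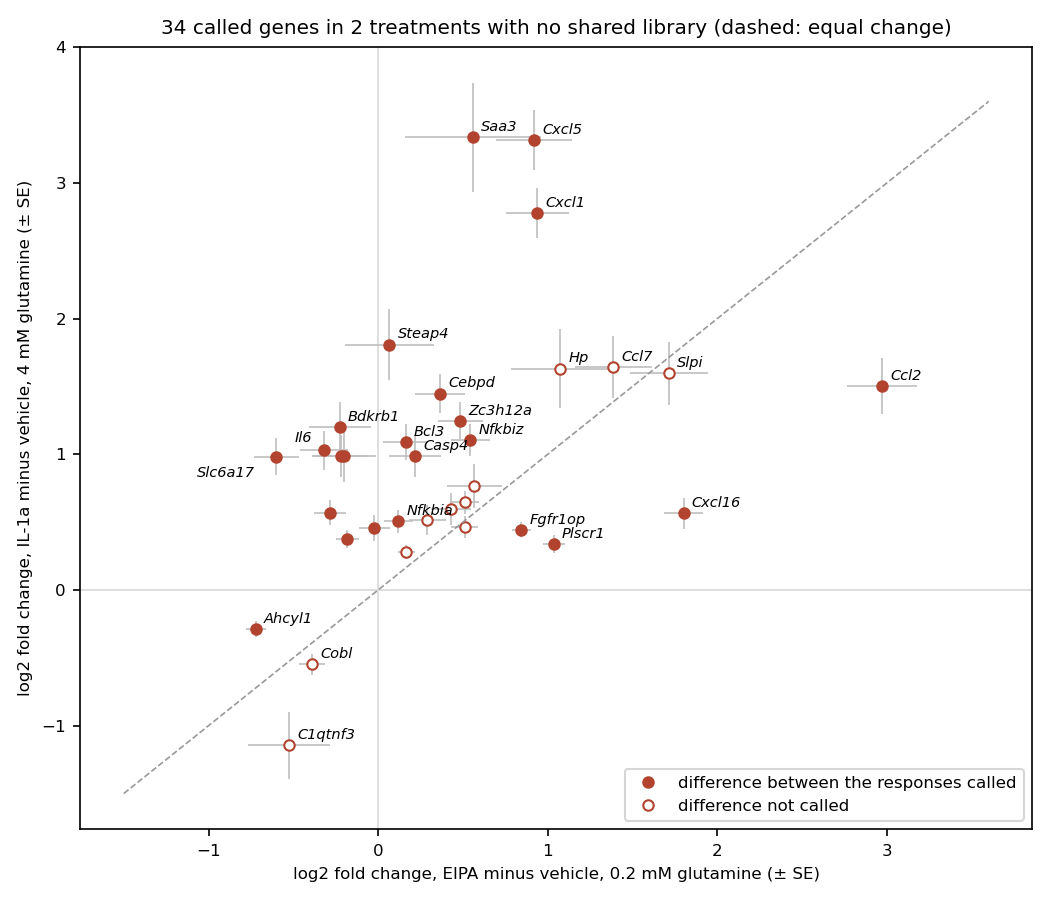
Log2 fold change of 34 of the 35 called genes with IL-1a at 4 mM glutamine (y axis) and with EIPA at 0.2 mM glutamine (x axis), bars SE, filled where the difference of the responses was called, with equal change dashed. Saa3, Cxcl5 and Cxcl1 lie far above the line, Ccl2 and Cxcl16 below it, and Ccl7 and Slpi near it, although with 0.1 TPM in place of 1 TPM added the difference of Slpi was called.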

How the data were processed

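The PureLink RNA Mini Kit gave the total RNA of immortalised primary murine CAFs, the Watchmaker mRNA kit gave libraries of polyadenylated RNA, and these were read from both ends on an Element AVITI, per the labels' protocols. The deposited values are TPM of 32285 genes in 20 libraries, which the authors made with RSEM on mm10, per the submitters' processing notes. The versions, aligner, annotation and use of strand were not given in the sources used here. Columns sum to between 999999.47 and 1000000.84 TPM, so the depth is unknown, intervals from counting could not be had, and low TPM may rest on few reads. RSEM shares reads between near-identical genes (Saa, Serpinb1 and H2 genes), whose levels are uncertain.

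From these, log2(TPM + 1) was computed, and the 12350 genes that reached 1 TPM in 5 or more libraries were kept. limma 3.58.1 in R 4.3.3 was fitted with a variance trend to the 4 groups of 5, all 20 libraries sharing an estimate of spread, after tests on simulated data. Benjamini-Hochberg adjustment ran over the 12350 genes, and genes were called under 0.05. Values after ± are SE for log2 fold changes and SD for TPM. The added 1 TPM makes fold changes of low genes smaller than their ratios.

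The members, gene lists (38, with 806 of 811 entries in the table), rule for named genes and alternatives were chosen with earlier results of these data known, and the lists overlap. The rule named, in each direction, up to 12 called genes of largest change with no overlap and a mean of 5 TPM or more, a panel of 36, and up to 4 called members of each list. Of the panel 8 were called, 23 were not and 5 were not tested. Those not called included Tagln (-0.32 ± 0.22), Csf1 (-0.19 ± 0.11) and Il1rl1 (0.29 ± 0.14), which are not given above. Other genes were named after their values were seen, and 1 called gene and 1 marker are not reported here. Positions are those of GENCODE M21 (GRCm38), which held 32158 of the IDs. The mitochondrial share was compared over all 252 assignments of the 10 libraries, which allow no p under 0.0079. Alternatives changed the pseudocount, filter, scaling, libraries fitted, variance trend, weights, replicate block and libraries left out.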

Additional observations from a re-analysis of the deposited data

Results flagged for a closer look

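The levels below are printed in TPM, but libraries were compared on log2(TPM + 1), in 62 of the named genes. On that scale, a library was listed here where it stood apart from the other 4 of its group. The gap over the range had to pass Dixon's 95% limit. Chance alone gives this in about 1 in 20 groups, and 9 of 124 groups met it. IL-1a replicate 1 was the highest IL-1a library in 6 of them. It stood at 60.92 TPM for Saa3 (7.67 to 13.47 TPM in the other 4), 21.17 TPM for Casp4 (12.42 to 14.02), 5.02 TPM for Rgs4 (1.65 to 2.30), 121.42 TPM for Dpy19l1 (80.40 to 87.43), 62.29 TPM for Susd6 (36.61 to 42.51) and 18.0 TPM for Icam1 (10.96 to 12.53). All but Icam1 were called higher, and the calls of these 5 held without that library, with log2 fold changes of 2.83, 0.86, 0.78, 0.54 and 0.33 in the same order. IL-1a replicate 3 was the lowest IL-1a library for Postn, at 10.94 TPM (12.18 to 12.50 in the other 4).

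Vehicle replicate 5 was the lowest vehicle library for Acta2, at 841.65 TPM (1284.99 to 1525.42 in the other 4). Vehicle replicate 2 was the highest for Has1, at 0.14 TPM (0 to 0.02), a level too low to be tested.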

How the results depend on the processing

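All 35 called genes kept their direction under every alternative that could be fitted for them, 14 were called under all of these, and 617 of 725 single values stayed called. Saa3, Slpi, Bcl3, Casp4 and Nfkbia were each called under 20 of 21. limma called 25 to 50 genes under all alternatives but the following pair. The count was 19 (18 higher, 1 lower) when the 10 libraries at 4 mM were fitted alone. With these 10 and the replicate number as a block it was 18 (17 higher, 1 lower), 15 of them among the 35. Same-numbered IL-1a and vehicle libraries correlated at -0.28, 0.33, 0.22, 0.26 and 0.60 in their deviations from the group means, so the numbers were not taken to pair the samples, and not every library correlated best with its own number. The count of lower genes was 7 with no filter and 11 with array weights. Leaving out single libraries gave 27 to 47 genes in all, 25 to 43 higher and 1 to 6 lower. The count of lower genes was 1 without IL-1a replicate 1 or vehicle replicate 1, 2 or 3, and 6 without vehicle replicate 5. A difference from the EIPA response was called for 3134 to 5044 genes under the alternatives, against 3569 in the main fit. A pseudocount of 0.1 moved the log2 fold changes of Saa3, Steap4, Rgs4 and Serpinb1b by over 1.5 times. The difference in mitochondrial share, -0.37 percentage points, was 0.11 without vehicle replicate 3 and down to -0.64 without vehicle replicate 1.

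Of genes not called, Il1rn turned to -0.027 with array weights, -0.30 without the 3 libraries of low Ccn1, and -0.25 to 0.34 with single libraries left out. Dcn turned to -0.17 without those 3, and -0.092 to 0.34 with single libraries left out. Icam1 turned to -0.054 without those 3 and -0.057 without IL-1a replicate 1, and Tnfaip3 to -0.058 without IL-1a replicate 2. The cause was not tested. Unknown depth limits all genes of a few TPM.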

Other observations

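Of 9 tested genes of hyaluronan synthesis and turnover none was called by limma (median 0.08), and 2 had an unadjusted p under 0.05. Tnfaip6, a hyaluronan-binding protein known to be induced by IL-1, was at 3.29 to 5.61 TPM with IL-1a and 2.80 to 4.16 TPM with vehicle, so the groups overlapped (0.34 ± 0.12). Of 16 hypoxia genes none was called either (median 0.13, or 0.087 without IL-1a replicate 1), and 2 had such a p. Hif1a, the oxygen-regulated subunit of HIF-1, was at 136 to 198 TPM with IL-1a and 114 to 121 TPM with vehicle, with no overlap and no call (0.33 ± 0.08). Bnip3, a mitochondrial receptor for autophagy and a HIF target, had a value of 0.34 ± 0.11. Of 15 p53 targets none was called, and 1 had an unadjusted p under 0.05 (median -0.03).

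Some genes lay just short of the threshold and were called under several alternatives, and these were chosen after their values were seen. Ccn5, a matricellular protein, averaged 1.85 ± 0.71 TPM with IL-1a and 0.66 ± 0.34 TPM with vehicle (SD, n = 5 each; limma adjusted p = 0.052), and 5 alternatives called it. Fbln5, fibulin 5, a protein of elastic fibres, averaged 115 ± 19.5 TPM with IL-1a and 169 ± 16.8 TPM with vehicle (-0.56 ± 0.12, adjusted p = 0.052), and 4 alternatives called it. Fzd6, a Wnt receptor, averaged 44.8 ± 3.11 TPM with IL-1a and 54.4 ± 2.61 TPM with vehicle (-0.27 ± 0.06, adjusted p = 0.051), also with 4. For Fbln5 and Fzd6 no IL-1a library reached the level of any vehicle library.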
